A study of Mus musculus with 15 samples.

Results

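The comparison described here sets retinal endothelial cells of mice without the receptor Frizzled4 against those of wild-type mice. It compares 9 of the 15 arrays of the series: the 3 whose labels give the genotype Fz4-/- (Fz4 KO) and the 6 labelled wild type. On each array were read all probe sets that carry exactly 1 gene symbol, 34958 of 45101, which stand for 18194 genes. All pools came from adult mice of a C57Bl6/129 mixed background, labelled as mixed gender, and each array held RNA of 5 to 10 mice whose retinal vessels were caught on beads with an antibody to PECAM, an adhesion protein of endothelial cells. The Fz4-/- label names no cell type or time of the deletion, so the endothelium, its support cells and the neural retina all lacked the gene by label. Pools of Lrp5-/- mice (3 arrays) and of Norrin knockout mice (3 arrays), purified in the same way, showed where Fz4 KO differed from other mutants. Their arrays also entered the choice of probe sets and the spread behind the standard errors and adjusted p-values against wild type. With 3 and 6 pools the number of arrays limits the precision, and p-values measure the spread between pools, not between mice.

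Frizzled4 is a receptor of endothelial cells that, with the coreceptor Lrp5 and the tetraspanin Tspan12, binds Norrin, a ligand secreted by Müller glia. Binding stabilises beta-catenin, which enters the nucleus and acts with TCF and LEF factors on its target genes. In the retina this signal is known to be needed for the growth of the inner capillary layers and for the blood-retina barrier, the tight and transporter-rich capillary wall that keeps plasma out of the tissue.

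The labels were checked against the signals first. Pecam1, the protein on which the cells were caught, read 11.83, 11.72 and 11.77 on the Fz4 KO arrays and 11.29, 11.62 and 11.80 (lowest, median, highest) on the wild-type arrays, on the log2 scale used for every signal below. The difference of +0.18 (adjusted p = 0.548) did not pass the test. Arrays correlated at 0.985 to 0.992 within Fz4 KO, at 0.962 to 0.992 within wild type and at 0.920 to 0.969 between the groups. On the first principal component of the 9 arrays, with 55.3% of the variance, Fz4 KO lay between -78.2 and -53.4 and wild type between 12.2 and 62.1. Wild type 4 stood apart on the second component (16.3% of the variance, at 56.4). The X-linked RNA Xist read 11.42, 11.75 and 11.88 in Fz4 KO and was low only on wild type 4 and 5 (5.99 and 4.88), and the Y gene Eif2s3y was low on Fz4 KO 3 (3.25), wild type 3 (2.69) and wild type 6 (2.81). Sex-linked signals thus differed between pools with the same label of mixed gender. Of 617 X-linked genes, 13.3% were called, 57 higher and 25 lower in Fz4 KO.

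Of the 18194 genes, 3047 passed an adjusted p of 0.05 in limma, which is 16.7% of all genes tested. In Fz4 KO 1940 of them were higher (10.7%) and 1107 lower (6.08%). The percent called that is given with gene lists below can be set beside these shares. The lists were chosen with earlier results of these data known, so their counts and medians are no independent result. The median difference of all genes was -0.03 on the log2 scale, and the median size among the called genes was 1.01. The 3 Fz4 KO arrays did not overlap the 6 wild-type arrays for 4227 genes (23.2%), and 2778 of these were also called (15.3%). Counted by probe set, 14.1% of those with 1 symbol, 9.55% of those with several, 4.4% of those with none and 0% of the 51 control probe sets were called. With the replicate numbers 1 to 3 that both groups carry as a block, on Fz4 KO 1 to 3 and wild type 1 to 3, 1783 genes were called higher and 1449 lower; of the 239 called genes that are named or listed here 30 lost the call and 16 uncalled ones gained it, and such adjusted p-values are given below as those with the block. The fit with the block also leaves out wild type 4 to 6. With wild type 1 to 3 alone, no block and the other mutants kept, 36 of the 239 lost the call. Some calls that ended with the block had ended there already (Cav1, adjusted p = 0.105), and others had not (Abcc9, adjusted p = 0.0252). The part of the pairing itself in calls that ended with the block was not tested. Without Fz4 KO 3, 1155 genes were called higher and 755 lower. At least 4-fold differences were called for 284 higher and 132 lower genes, and at least 64-fold ones for 10 higher and 4 lower genes. Most of the largest rises had a dim wild-type signal: of the 34 genes at least 16-fold higher in Fz4 KO, 30 had a wild-type signal under 6.94, the median over all genes, and of the 20 genes at least 16-fold lower none had. These are brightnesses of probe sets and not transcript levels. The files used here give no detection calls, so a fold against a dim signal depends on where the background of that probe set lies.

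**Figure D1:**
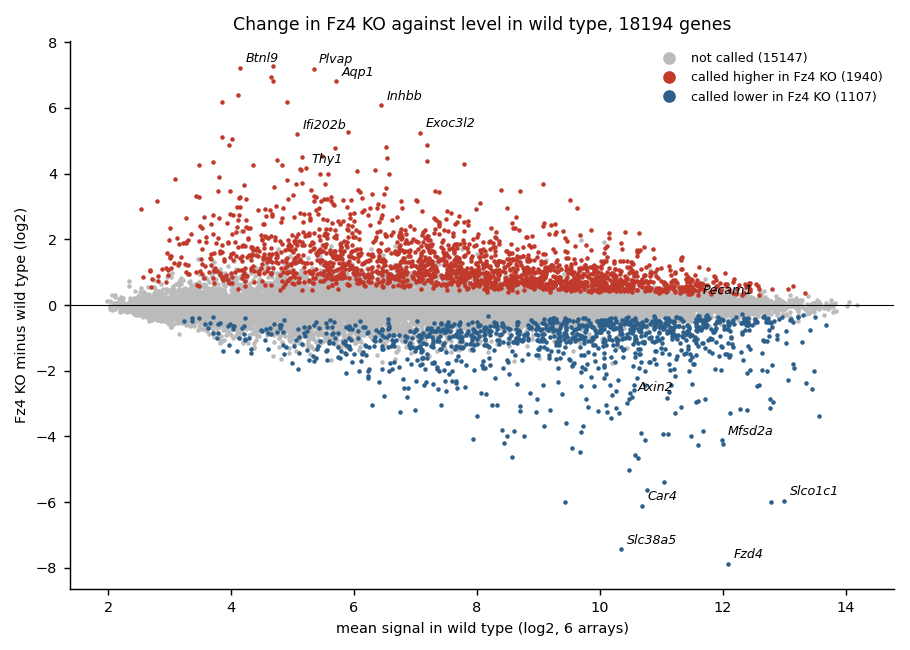
Each point is 1 of 18194 genes, with its mean signal in wild type (log2, 6 arrays) on the horizontal axis and the difference of Fz4 KO minus wild type (log2) on the vertical axis. Red points are the 1940 genes called higher in Fz4 KO, blue points the 1107 called lower and grey points the rest; the tall rises start at low wild-type signals, while the deep falls start at high ones.

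Fzd4, the gene that was removed, read 3.98, 4.13 and 4.56 in Fz4 KO and 11.80, 12.17 and 12.27 in wild type. The groups were far apart, with a difference of -7.87 ± 0.15 (adjusted p = 3.06e-13), where the value after ± is here and below the standard error of the fit. Its other probe sets fell by 4.94 and 1.84, so the 3 probe sets disagreed on size and not on direction. Of the 5 measured genes to either side of Fzd4 in chromosome order, only Prss23, a serine protease gene, was called (+0.97, adjusted p = 2.49e-05). Prss23 did not pass the test against Lrp5 KO (+0.13, adjusted p = 0.75) and was higher than in Norrin KO (+0.85, adjusted p = 0.0074).

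Among the partners of the receptor, the coreceptor Lrp6 was slightly lower in Fz4 KO, at 10.94, 11.12 and 11.03 against 11.37, 11.58 and 11.81 in wild type. The ranges did not overlap, and the difference was -0.52 ± 0.12 (adjusted p = 0.00874), a call that ended without Fz4 KO 1 (adjusted p = 0.0517) and with the block (adjusted p = 0.0649). Lrp5 (+0.18, adjusted p = 0.623), Tspan12 (+0.51 (adjusted p = 0.0617), or 0.0408 with the block) and Norrin itself, encoded by Ndp (+0.27, adjusted p = 0.377), did not pass.

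Of 23 measured Wnt relays and inhibitors, 2 were higher and 4 lower in Fz4 KO, with a median of -0.06. That is 26.1% called, against 16.7% of all genes, and both higher calls ended with an array left out. Reck, a membrane protein that presents Wnt7 ligands to Frizzled4 in brain vessels, read 9.02, 9.12 and 9.18 against 11.29, 11.52 and 11.72, a difference of -2.40 ± 0.16 (adjusted p = 1.23e-07). Adgra2 (Gpr124), the adhesion receptor that works beside Reck, was also lower at 10.43, 10.06 and 10.19 against 10.93, 11.13 and 11.44 (-0.95 ± 0.16, adjusted p = 0.000682). Neither gene's arrays overlapped between the groups. The other Frizzled genes called were Fzd6 (-1.49, adjusted p = 1.76e-05) and Fzd2 (-1.28, adjusted p = 0.00149). Fzd1 did not pass on its brightest probe set (-0.06, adjusted p = 0.892), while a dimmer one gave +0.78 (adjusted p = 0.0199). The inhibitor Sfrp1 (+1.08, adjusted p = 0.0381) and the transcriptional repressor Tcf7l1 (+1.03, adjusted p = 0.00816) were called higher, but the first call ended when any of 5 arrays was left out (adjusted p up to 0.217) and the other without Fz4 KO 3 (adjusted p = 0.0694). Beta-catenin itself (Ctnnb1, -0.25 (adjusted p = 0.137)) and Apc (+0.003, adjusted p = 0.993) did not pass.

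Of 16 measured beta-catenin feedback and target genes, 8 were lower and 3 higher in Fz4 KO (68.8% called), and the list's median was -0.98. Axin2, a scaffold of the complex that destroys beta-catenin and a common readout of the pathway, read 8.50, 7.37 and 7.35 in Fz4 KO and 10.11, 10.50 and 10.99 in wild type, a difference of -2.78 ± 0.29 (adjusted p = 9.9e-06). Tnfrsf19, a receptor of the tumour necrosis factor family, fell the most of the list, to 7.27, 7.70 and 6.56 against 10.71, 11.18 and 11.46 (-3.93 ± 0.39, adjusted p = 5.98e-06). Apcdd1, a membrane inhibitor of Wnt signalling, read 10.34, 10.57 and 10.07 against 12.11, 12.33 and 12.75 (-2.07 ± 0.20, adjusted p = 5.29e-06). In none of these genes did any Fz4 KO array reach the lowest wild-type array.

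The secreted Wnt deacylase Notum (-1.61, adjusted p = 6.3e-06), the zinc finger factor Sp5 (-1.30, adjusted p = 0.00196), the receptor-removing ligase Znrf3 (-1.13, adjusted p = 0.00349) and the nuclear partner Lef1 (-1.06, adjusted p = 0.000263) were lower as well. The feedback inhibitor Nkd1 was lower (-1.19, adjusted p = 0.0266), but its arrays overlapped and its call ended without Fz4 KO 1, Fz4 KO 2 or wild type 1 (adjusted p up to 0.124). Myc, a growth regulator, moved the other way, at 11.39, 11.42 and 12.09 in Fz4 KO against 8.35, 9.24 and 10.06 in wild type (+2.43 ± 0.29, adjusted p = 3.75e-05). The cyclin gene Ccnd1 (+1.29, adjusted p = 9.37e-05) and the secreted Wnt modulator Dkk2 (+1.32, adjusted p = 0.00123) were also higher, so the list did not move one way. Lgr5 (-0.90 (adjusted p = 0.286), or 0.0175 with the block), Bambi (+0.15, adjusted p = 0.616), Rnf43 (-0.25, adjusted p = 0.447), Nkd2 (-0.13 (adjusted p = 0.834), or 0.0391 with the block) and Wif1 (-0.03, adjusted p = 0.964) did not pass.

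**Figure D2:**
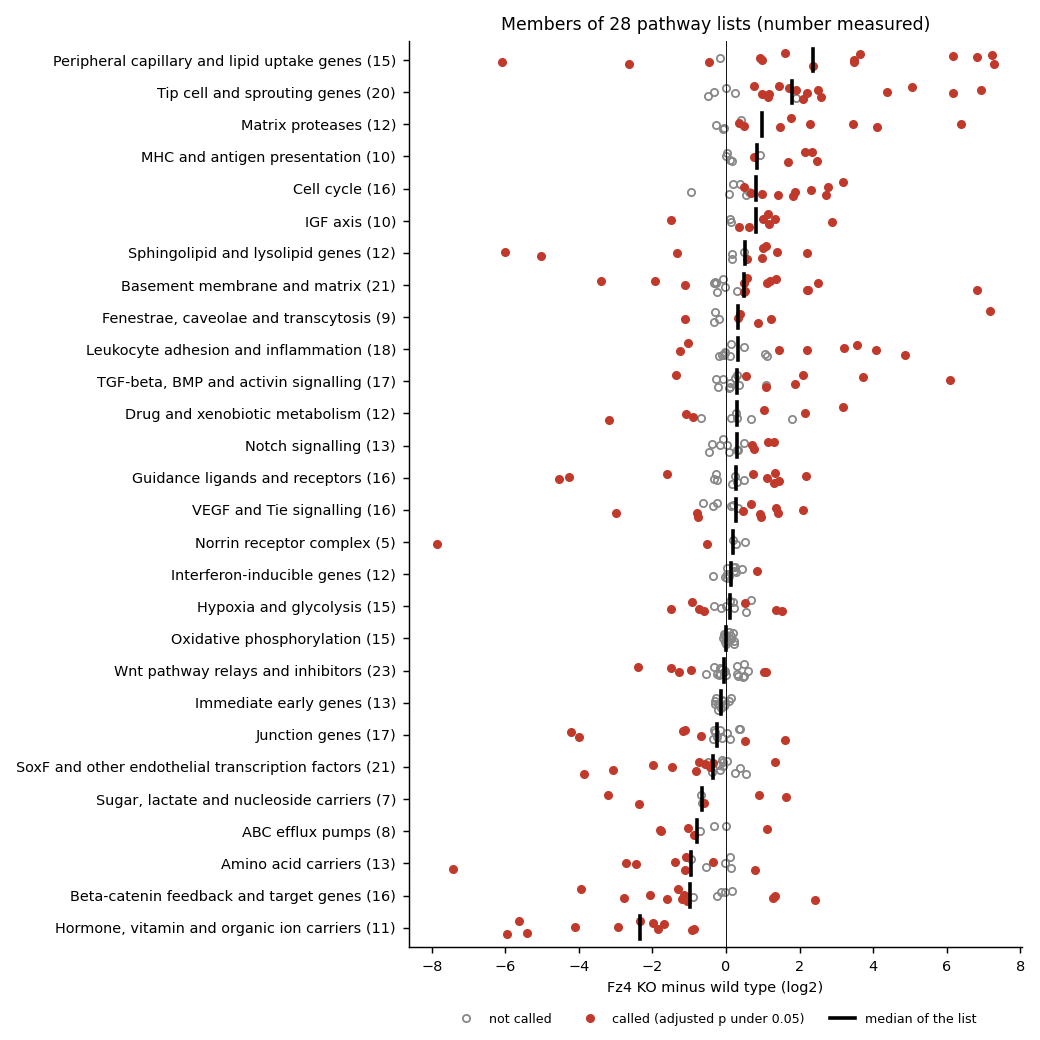
Each row is 1 of 28 gene lists with its number of measured members, and each point is the difference of Fz4 KO minus wild type (log2) of 1 member. Filled points passed the adjusted p of 0.05, open points did not, and black bars mark the median of the list, which ran between 2.36 in the peripheral capillary list and -2.34 in the list of hormone, vitamin and organic ion carriers.

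Beta-catenin acts through TCF and LEF factors, so promoters of genes that moved are shown with the core letters of their site marked. The windows run 250 bases before to 50 after a gene's start, come from RefSeq on the GRCm38.p6 build, and were searched on both strands for CTTTGA, whose reverse complement is TCAAAG; matches are in capitals. Sp5 (chr2:70474673-70474972, plus strand) and Tnfrsf19 (chr14:61037938-61038237, minus strand) are shown as targets that fell, Slc19a3 (chr1:83038399-83038698, minus strand) as a carrier that fell and Esm1 (chr13:113209409-113209708, plus strand) as a tip cell gene that rose.
Sp5: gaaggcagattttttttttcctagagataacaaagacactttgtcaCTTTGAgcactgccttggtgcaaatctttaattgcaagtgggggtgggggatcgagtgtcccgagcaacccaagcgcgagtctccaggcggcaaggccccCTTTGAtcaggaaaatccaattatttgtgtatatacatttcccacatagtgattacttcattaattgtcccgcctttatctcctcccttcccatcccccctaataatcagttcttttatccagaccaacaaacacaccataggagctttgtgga
Tnfrsf19: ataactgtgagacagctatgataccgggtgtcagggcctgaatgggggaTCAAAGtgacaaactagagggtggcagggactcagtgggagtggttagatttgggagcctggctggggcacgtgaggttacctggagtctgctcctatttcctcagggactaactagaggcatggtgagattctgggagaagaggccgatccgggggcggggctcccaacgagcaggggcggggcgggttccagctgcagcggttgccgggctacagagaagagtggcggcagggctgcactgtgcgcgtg
Slc19a3: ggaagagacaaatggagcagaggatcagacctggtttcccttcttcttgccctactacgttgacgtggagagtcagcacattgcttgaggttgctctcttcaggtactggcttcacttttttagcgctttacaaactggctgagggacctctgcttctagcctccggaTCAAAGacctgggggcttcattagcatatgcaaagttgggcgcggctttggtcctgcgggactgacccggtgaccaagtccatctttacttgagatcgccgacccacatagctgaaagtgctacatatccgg
Esm1: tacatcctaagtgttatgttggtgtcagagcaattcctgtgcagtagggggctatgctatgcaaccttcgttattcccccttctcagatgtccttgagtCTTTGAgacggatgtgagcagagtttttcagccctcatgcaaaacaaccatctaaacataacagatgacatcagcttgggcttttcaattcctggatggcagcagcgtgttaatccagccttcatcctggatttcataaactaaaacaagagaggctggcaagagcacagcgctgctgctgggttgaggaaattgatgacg
Sp5 held 2 matches and each of the others 1, and only windows with a match are printed. Among the lower genes of the beta-catenin list, the windows of Axin2 and Nkd1 and another window of Tnfrsf19 held none. Of the windows of Lef1, only chr3:131156044-131156343 held the letters. The shares below count windows, and such genes enter them with more than 1. Among the lower genes of the beta-catenin list, 3 of 9 windows (33.3%, 5 genes with a window) held the letters, against 16% of all 32851 windows. The 15 largest rises held them in 2 of 12 windows (16.7%) and the 15 largest falls in 2 of 18 (11.1%). ACAATG, the core letters of a SOX site (reverse complement CATTGT), stood in 1 of 9, 2 of 12 and 1 of 18 of the same windows and in 12.6% of all windows. The 2 motifs were counted apart and can overlap by at most 1 base, and a match describes the letters only.

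The genes that rose most in Fz4 KO were led by products of capillaries outside the brain and retina. Gpihbp1, which anchors lipoprotein lipase to the capillary wall, read 11.95, 12.004 and 11.92 in Fz4 KO and 4.27, 4.62 and 5.52 in wild type (+7.29 ± 0.22, adjusted p = 2.83e-11). Plvap, the protein of the diaphragms that span fenestrae and caveolae, read 12.51, 12.49 and 12.59 against 4.69, 5.34 and 6.01 (+7.19 ± 0.24, adjusted p = 7.61e-11). Aqp1, a water channel, read 12.62, 12.49 and 12.48 against 4.72, 5.84 and 6.47 (+6.82 ± 0.29, adjusted p = 1.31e-09). For each of the 3 the Fz4 KO arrays lay close together and far above every wild-type array.

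Btnl9, a membrane protein of the butyrophilin family, rose by a like amount, with 11.46, 11.52 and 11.15 against 3.51, 4.13 and 4.62 (+7.22 ± 0.21, adjusted p = 2.74e-11). Cd300lg, a mucin-like receptor of capillaries and venules, read 9.96, 9.90 and 10.20 against 3.21, 3.83 and 4.43 (+6.17 ± 0.23, adjusted p = 2.87e-10). Both sets of Fz4 KO arrays were clear of the wild-type range, which the choice of genes required. Esm1, a secreted proteoglycan of sprouting tip cells, read 11.39, 11.87 and 11.52 against 3.31, 4.81 and 5.46 (+6.94 ± 0.33, adjusted p = 3.86e-09). The potassium channel subunit Kcne3 had 11.25, 11.43 and 10.60 against 4.28, 4.92 and 5.44 (+6.18 ± 0.43, adjusted p = 1.58e-07), and Fz4 KO 3 was the lowest of its group. Apln, the ligand of the apelin receptor, had 8.91, 9.52 and 8.83 against 3.24, 3.89 and 5.48 (+5.07 ± 0.38, adjusted p = 3.37e-07); its highest wild-type array was wild type 2.

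The remaining places held genes of several kinds. Col15a1, a basement membrane collagen, read 11.38, 11.62 and 11.49 in Fz4 KO against 3.80, 4.62 and 5.36 (+6.81 ± 0.27, adjusted p = 6.08e-10). Adam12, a membrane metalloprotease, had a narrow range in both groups, at 10.51, 10.55 and 10.44 against 3.88, 4.10 and 4.35 (+6.39 ± 0.17, adjusted p = 1.2e-11). Inhbb, which encodes a subunit of activin B, read 12.61, 12.53 and 12.44 against 5.68, 6.48 and 7.29 (+6.09 ± 0.30, adjusted p = 4.62e-09). None of their arrays overlapped between the groups, again by the rule that chose them. Exoc3l2 (+5.25, adjusted p = 6.36e-09), Fam167b (+5.28, adjusted p = 2.21e-09) and the testis antigen gene Ct55 (+5.10, adjusted p = 7.64e-09) followed. Ifi202b, a DNA-binding protein of the interferon-inducible p200 family, had 9.70, 10.53 and 10.60 against 4.45, 4.87 and 6.35 (+5.21 ± 0.55, adjusted p = 1.04e-05) and is taken up again below; close copies of it exist in the mouse, so its probes may read more than 1 gene.

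**Figure D3:**
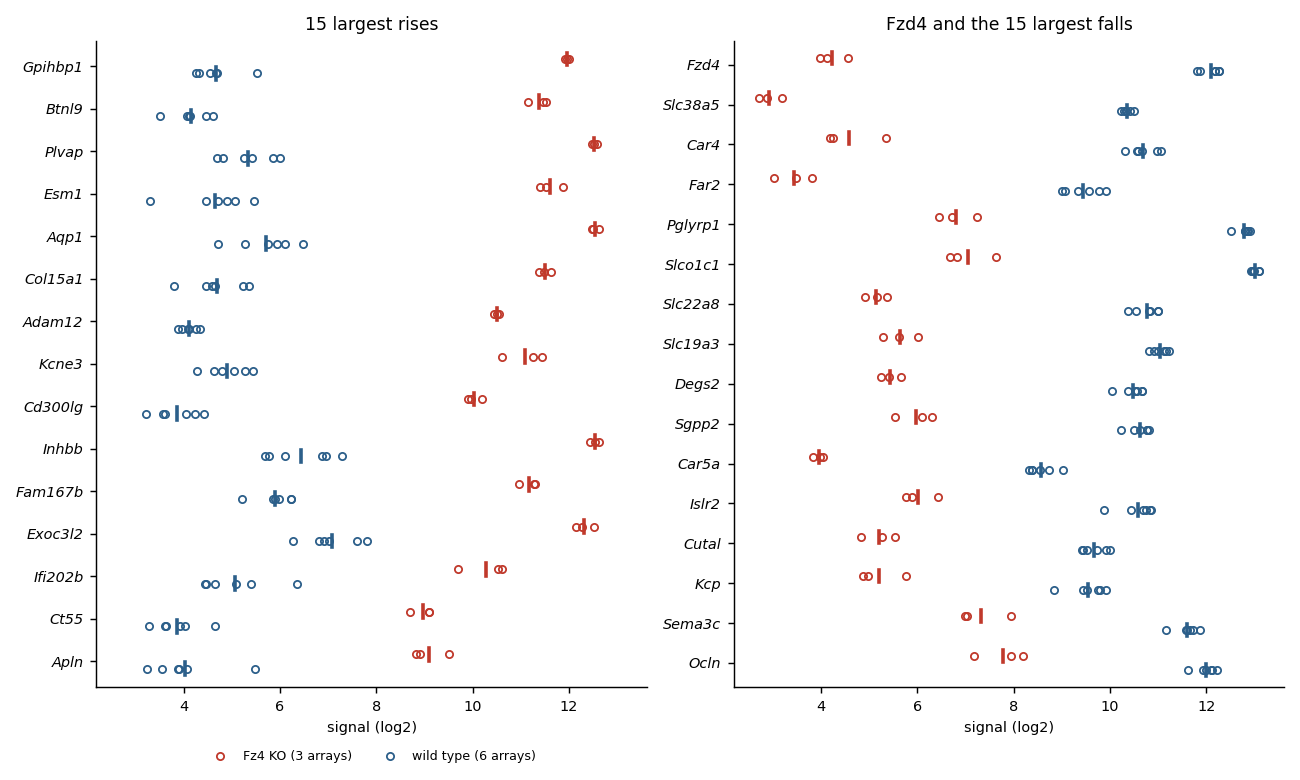
Open circles are single arrays, red for Fz4 KO (3 arrays) above blue for wild type (6 arrays), and vertical bars are group means of the signal (log2). In all 31 genes shown the red and blue circles stay apart, by the rule that chose the 30 largest changes; Fzd4 heads the falls.

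The genes that fell most included carriers and enzymes, and the 15 largest falls had wild-type signals above the median of all genes. Slc38a5, a glutamine carrier, read 2.71, 2.88 and 3.19 in Fz4 KO and 10.22, 10.33 and 10.50 in wild type (-7.42 ± 0.24, adjusted p = 5.96e-11). Slco1c1, which carries thyroid hormone, read 6.69, 6.82 and 7.64 against 12.93, 12.98 and 13.10 (-5.96 ± 0.28, adjusted p = 3.47e-09). Car4, a carbonic anhydrase on the capillary surface, read 4.24, 4.19 and 5.34 against 10.31, 10.62 and 11.05 (-6.10 ± 0.34, adjusted p = 1.32e-08). The wild-type arrays were close together in all 3 genes, and Fz4 KO 3 was the highest mutant array in each.

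Slc22a8, an exchanger of organic anions, read 5.17, 4.92 and 5.36 against 10.38, 10.83 and 11.01 (-5.62 ± 0.29, adjusted p = 6.36e-09). The thiamine carrier Slc19a3 read 5.62, 5.29 and 6.01 against 10.82, 11.07 and 11.22 (-5.40 ± 0.32, adjusted p = 2.4e-08). Neither overlapped. Pglyrp1, which binds bacterial peptidoglycan, had 7.23, 6.44 and 6.73 against 12.52, 12.83 and 12.90 (-5.99 ± 0.25, adjusted p = 8.68e-10). Lipid enzymes fell too: the fatty acyl reductase Far2 had 3.81, 3.48 and 3.02 against 9.004, 9.44 and 9.91 (-6.003 ± 0.22, adjusted p = 1.63e-10), the sphingolipid desaturase Degs2 was at -5.03 (adjusted p = 6.79e-08) and the sphingosine phosphate phosphatase Sgpp2 at -4.64 (adjusted p = 1.02e-05). The rest were the mitochondrial carbonic anhydrase Car5a (-4.61), the leucine-rich repeat protein Islr2 (-4.55), Cutal (-4.46), the secreted modulator of bone morphogenetic proteins Kcp (-4.34), the guidance ligand Sema3c (-4.27) and Ocln, with adjusted p-values of 1.64e-09 to 2.22e-07.

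Transcription factors of the endothelium were lower more often than higher in Fz4 KO. Of 21 measured members, 9 fell and 1 rose (47.6% called), and the median was -0.35. Tbx1, a T-box factor, read 5.59, 6.20 and 5.68 against 9.35, 9.77 and 9.87 (-3.86 ± 0.23, adjusted p = 3.51e-08). The forkhead factor Foxq1, a gene of brain endothelium, read 10.02, 10.20 and 9.72 against 11.72, 11.98 and 12.11 (-1.98 ± 0.13, adjusted p = 1.1e-07), and Foxf2, another forkhead factor, 8.89, 8.62 and 8.33 against 9.69, 10.13 and 10.30 (-1.46 ± 0.16, adjusted p = 1.57e-05). All 3 had separate ranges. Foxl2 fell by more (-3.09, adjusted p = 2.13e-06), while the flow-responsive Klf2 (-0.82, adjusted p = 0.00657) and Foxc1 (-0.72, adjusted p = 0.00298) fell by less. Of the SoxF factors, Sox17, which acts downstream of Norrin signalling in retinal vessels, was at -0.44 (adjusted p = 0.0359), a call that ended without any of 6 arrays (adjusted p up to 0.145) and with the block (adjusted p = 0.129), and Sox7 (+0.38, adjusted p = 0.0975) and Sox18 (+0.02, adjusted p = 0.953) did not pass. Mecom (-0.35, adjusted p = 0.0248) and Gata2 (-0.56, adjusted p = 0.00714) lost their calls without 1 of 3 arrays (adjusted p up to 0.110) and without Fz4 KO 2 (adjusted p = 0.0575), and both also with the block (adjusted p = 0.114 and 0.0707). Foxc2, known from lymphatic and venous valves, was the member that rose, at 11.60, 11.60 and 11.81 against 9.79, 10.35 and 10.69 (+1.34 ± 0.17, adjusted p = 5.95e-05).

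Carriers of hormones, vitamins and organic ions fell throughout: 11 of 11 measured members were lower in Fz4 KO, with a median of -2.34, and each call held whichever of the 9 arrays was left out. Besides those above, Mfsd2a, which carries lysolipids and restrains transcytosis at the barrier, read 8.26, 8.18 and 7.18 against 11.87, 11.98 and 12.18 (-4.12 ± 0.23, adjusted p = 1.48e-08). Slco1a4, an organic anion carrier, read 9.86, 10.16 and 9.58 against 12.55, 12.86 and 12.93 (-2.95 ± 0.16, adjusted p = 8.94e-09). The folate carrier Slc19a1 was at -2.34 (adjusted p = 5.41e-06), the iron exporter Slc40a1 at -1.98 (adjusted p = 5e-07) and the zinc carrier Slc39a10 at -1.84 (adjusted p = 1.4e-07). The smallest falls of the list were those of Slc30a1 (-0.94) and Slc46a3 (-0.88).

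Of 13 amino acid carriers, 7 were lower and 1 higher (61.5% called), with a median of -0.94. Slc7a5, the light chain of the large neutral amino acid carrier, read 9.93, 10.20 and 10.35 against 12.43, 12.56 and 12.88 (-2.44 ± 0.21, adjusted p = 1.35e-06), while its partner chain Slc3a2 differed by only -0.35 (adjusted p = 0.0333), a call that ended without any of 7 arrays (adjusted p up to 0.156) and with the block (adjusted p = 0.0787). The glutamine carrier Slc38a3 (-2.72, adjusted p = 4.01e-06) and the cationic carrier Slc7a1 (-1.12, adjusted p = 2.26e-05) were lower. Slc7a8, another light chain, was higher (+0.80, adjusted p = 0.00451). The calls of Slc6a20a (-1.39) and of the taurine carrier Slc6a6 (-1.08) ended without 1 Fz4 KO array (adjusted p up to 0.119). Slc1a1, Slc1a4, Slc7a3, Slc38a2 and Slc43a2 did not pass.

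Sugar, lactate and nucleoside carriers split, with 3 of 7 lower and 2 higher (71.4% called). Slc16a1, the main lactate carrier of brain and retinal endothelium, read 11.04, 10.78 and 11.17 against 13.16, 13.35 and 13.65 (-2.36 ± 0.17, adjusted p = 1.96e-07). The glucose carrier Slc2a1 fell less, to 13.04, 13.20 and 13.01 against 13.51, 13.66 and 13.97 (-0.60 ± 0.12, adjusted p = 0.00215). Both sets were apart. Slc16a4 was at -3.22 (adjusted p = 2.22e-08). The nucleoside carrier Slc29a1 was higher (+1.63, adjusted p = 0.00298). The neuronal glucose carrier Slc2a3 was called higher (+0.90, adjusted p = 0.0446) with touching ranges, and the call ended without any of 8 arrays (adjusted p up to 0.175) and with the block (adjusted p = 0.114); with probe sets ending in _x_at or _s_at left out its value was -0.29.

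Of 8 ABC pumps, 4 were lower and 1 higher (62.5% called). Abcb1a, the P-glycoprotein that pumps drugs back into the blood, had a narrow spread in both groups, at 11.32, 11.35 and 11.33 against 13.09, 13.14 and 13.18 (-1.81 ± 0.10, adjusted p = 1.5e-08). Abcg2, another drug pump, was at -1.02 (adjusted p = 5.06e-06), Abcc4 at -0.87 (adjusted p = 0.000353) and Abcc6 at -1.77 (adjusted p = 2.57e-06). The cholesterol exporter Abca1 was higher (+1.12, adjusted p = 0.0012).

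Junction genes were lower for 5 of 17 members and higher for 2 (41.2% called), with a median of -0.23. Occludin (Ocln), a tight junction protein, read 7.95, 8.19 and 7.19 in Fz4 KO and 11.62, 12.05 and 12.22 in wild type (-4.22 ± 0.30, adjusted p = 1.62e-07), and its other probe set gave -4.02 (adjusted p = 9.81e-10). Lsr, which builds junctions where 3 cells meet, read 7.52, 7.62 and 7.30 against 11.36, 11.46 and 11.66 (-3.999 ± 0.14, adjusted p = 7.61e-11), although a dim second probe set gave -0.11 (adjusted p = 0.612). Claudin 5 (Cldn5), the main claudin of the barrier, kept a strong signal and was lower at 11.77, 11.96 and 11.87 against 12.92, 13.05 and 13.15 (-1.16 ± 0.13, adjusted p = 1.46e-05). In all 3 genes the Fz4 KO arrays lay below every wild-type array. The scaffold Tjp1 (-0.68, adjusted p = 0.00133) and Cgnl1 (-1.12, adjusted p = 1.95e-05) were lower. Jam3, a junctional adhesion molecule, was higher at 9.79, 9.57 and 9.64 against 7.83, 7.93 and 8.52 (+1.60 ± 0.18, adjusted p = 2e-05), and the call of F11r (+0.52) ended without any of 6 arrays (adjusted p up to 0.134) and with the block (adjusted p = 0.0802). VE-cadherin (Cdh5, +0.38 (adjusted p = 0.0652)) and Esam (-0.15, adjusted p = 0.448) did not pass, although a dimmer Cdh5 probe set gave +1.23 (adjusted p = 0.0203) and other Jam2 probe sets gave -0.62 and -0.77 (adjusted p = 0.0457 and 0.0163).

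Of 9 genes of fenestrae, caveolae and transcytosis, 5 were higher and 1 lower (66.7% called), and Plvap stood far from the other 8. The caveolar coat genes moved little: Cav1 was at +0.39 (adjusted p = 0.0373) and Ehd2 at +0.33 (adjusted p = 0.029), and both calls ended when any Fz4 KO array was left out (adjusted p up to 0.145) and with the block (adjusted p = 0.0685 and 0.105). Ehd4, an ATPase of endosomal membranes, read 12.77, 12.71 and 12.74 against 11.64, 11.85 and 12.18 (+0.87 ± 0.12, adjusted p = 0.00014), and the coat protein Cavin3 9.73, 9.60 and 9.86 against 8.18, 8.49 and 8.80 (+1.23 ± 0.15, adjusted p = 4.94e-05). Both were clear of the wild-type arrays. Cavin2, a coat protein as well, was lower, at 11.51, 11.47 and 11.72 against 12.49, 12.70 and 12.81 (-1.11 ± 0.12, adjusted p = 1.25e-05), and Cav2 and Cavin1 did not pass.

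Genes of peripheral capillaries and of lipid uptake were called for 14 of 15 members (93.3%), 11 higher and 3 lower, with a median of +2.36. The list was chosen with earlier results of these data known and holds some of the largest changes, which its count and median include. Beyond the 4 members among the largest rises, Fabp4, a fatty acid binding protein, read 12.27, 11.90 and 12.36 in Fz4 KO against 7.51, 8.90 and 9.12 (+3.48 ± 0.33, adjusted p = 3.76e-06). Meox2, a homeobox factor that turns on fatty acid uptake genes in heart endothelium, read 7.18, 7.63 and 6.98 against 3.21, 3.55 and 5.14 (+3.48 ± 0.45, adjusted p = 8.38e-05). Lipoprotein lipase (Lpl), the enzyme that Gpihbp1 holds, read 10.73, 11.22 and 10.91 against 7.31, 8.88 and 9.12 (+2.36 ± 0.33, adjusted p = 0.00016). Each was higher on every Fz4 KO array than on any wild-type array. The fatty acid receptor Cd36 (+1.60, adjusted p = 0.00435), Fabp5 (+0.92, adjusted p = 0.000621), the sialomucin Emcn (+0.97, adjusted p = 0.000427) and Car8 (+3.65, adjusted p = 1.59e-05) were higher. Car4 and the complement inhibitor Cd59a (-2.65, adjusted p = 6.09e-08) were lower, and the call of the clotting protein gene Vwf (-0.47) ended without any of 5 arrays (adjusted p up to 0.212) and with the block (adjusted p = 0.0977).

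Of 20 tip cell and sprouting genes, 15 were higher and none was lower, against 16.7% called among all genes. The median was +1.80, and 13 of the calls held with each array left out. Ramp3, a coreceptor for adrenomedullin, read 11.70, 11.33 and 11.63 against 6.66, 7.03 and 7.82 (+4.37 ± 0.24, adjusted p = 1.32e-08). Angpt2, an antagonist of the Tie2 receptor, read 10.78, 11.05 and 10.86 against 8.51, 8.78 and 9.20 (+2.08 ± 0.16, adjusted p = 3.07e-07). The chemokine receptor Cxcr4 read 12.37, 12.68 and 12.68 against 10.44, 10.97 and 11.24 (+1.71 ± 0.19, adjusted p = 1.65e-05). Fz4 KO was above every wild-type array in the 3 genes. The basement membrane protein Nid2 (+2.50, adjusted p = 1.14e-06), Trp53i11 (+2.58, adjusted p = 2.62e-06), the signalling adaptor Lcp2 (+1.90, adjusted p = 0.000362), the netrin receptor Unc5b (+1.43, adjusted p = 0.000499), the adhesion protein Mcam (+1.17, adjusted p = 1.69e-05), the growth factor binding protein Igfbp3 (+1.15, adjusted p = 9.88e-05) and Lamb1 were also higher. The Notch ligand Dll4 (+0.75, adjusted p = 0.0368) and the urokinase receptor Plaur (+0.99, adjusted p = 0.0414) were called with overlapping arrays, and lost the call without any of 7 or 8 arrays (adjusted p up to 0.164 and 0.206) and with the block (adjusted p = 0.216 and 0.159). Aplnr (+1.91, adjusted p = 0.0599), Pdgfb (-0.48, adjusted p = 0.0923), Cd34 (+0.004, adjusted p = 0.982), Adm (-0.34, adjusted p = 0.1) and Sirpa (+0.24, adjusted p = 0.684) did not pass, although another probe set of Aplnr gave +2.45 (adjusted p = 0.0473) and another of Sirpa +0.80 (adjusted p = 0.0393).

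Receptors and ligands of the VEGF family were higher in part. Of 16 VEGF and Tie genes, 7 were higher and 3 lower (62.5% called). The growth factor Vegfa read 9.28, 8.74 and 9.13 against 7.41, 7.72 and 8.13 (+1.36 ± 0.20, adjusted p = 0.000225), and its main receptor Kdr 12.57, 12.51 and 12.35 against 11.14, 11.62 and 11.84 (+0.93 ± 0.17, adjusted p = 0.00128). Both rose clear of wild type. Placental growth factor (Pgf) was at +1.41 (adjusted p = 3.08e-05), and the coreceptors Nrp1 and Nrp2 were at +0.67 (adjusted p = 0.000656) and +0.95 (adjusted p = 5.51e-05). The Tie2 receptor gene Tek was lower, 12.30, 12.14 and 12.29 against 12.88, 13.04 and 13.09 (-0.78 ± 0.11, adjusted p = 0.0002), and Angptl4, a secreted inhibitor of lipoprotein lipase, fell to 7.51, 7.36 and 7.50 against 10.11, 10.33 and 10.86 (-2.98 ± 0.22, adjusted p = 3.02e-07). Angpt1 (-0.76) and Flt4 (+0.46) lost their calls without 1 of 2 and 1 of 4 arrays (adjusted p up to 0.109 and 0.120), Flt4 also with the block (adjusted p = 0.0692), and Flt1 (-0.35, adjusted p = 0.0515) did not pass, although another Flt1 probe set gave -0.49 (adjusted p = 0.0267). Of 13 Notch genes 4 were higher and none lower (30.8% called, against 16.7% of all genes). These were Dll1 (+1.30, adjusted p = 0.00016), Heyl (+1.13, adjusted p = 0.00164), Nrarp (+0.71, adjusted p = 0.00805) and Dll4. The receptors Notch1 and Notch4 and the targets Hey1, Hey2 and Hes1 did not pass. By limma without adjustment 18 of the tip cell genes and 7 of the Notch genes had a p under 0.05.

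Of 17 measured genes of TGF-beta, BMP and activin signalling, 6 were higher and 1 lower in Fz4 KO (41.2% called), Inhbb among the higher ones. Bmp6 read 9.07, 8.67 and 8.91 in Fz4 KO against 4.70, 5.11 and 5.72 in wild type (+3.72 ± 0.23, adjusted p = 3.51e-08), and Bmp4 8.73, 8.50 and 9.21 against 5.98, 6.66 and 7.96 (+2.08 ± 0.35, adjusted p = 0.000656). The Fz4 KO arrays exceeded all wild-type arrays for both ligands. Tgfb1 was at +1.89 (adjusted p = 0.000164), although another of its probe sets gave -0.17 and did not pass. Acvrl1, the endothelial receptor for BMP9 and BMP10, was lower at 9.94, 9.89 and 10.08 against 11.19, 11.30 and 11.48 (-1.36 ± 0.18, adjusted p = 9.21e-05). The calls of its partner Eng (+0.55) and of Inhba (+1.08) ended without 1 of 2 and 1 of 7 arrays (adjusted p up to 0.0909 and 0.245). The targets Id1, Id2, Id3, Smad6 and Smad7 did not pass.

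Basement membrane and matrix genes were higher for 11 of 21 members and lower for 3 (66.7% called), with a median of +0.49. Col18a1, a basement membrane collagen, read 11.70, 11.48 and 11.40 against 8.97, 9.32 and 9.52 (+2.23 ± 0.17, adjusted p = 3.74e-07), and the laminin chain Lamb1 12.27, 12.38 and 12.40 against 9.68, 10.14 and 10.60 (+2.20 ± 0.20, adjusted p = 2.59e-06). The groups were apart for both. Col4a1 (+0.49, adjusted p = 0.00469), Col4a2 (+0.49, adjusted p = 0.00925), Lama4 (+1.11, adjusted p = 0.000547), Hspg2 (+1.35, adjusted p = 0.000677) and Col5a1 (+1.21, adjusted p = 0.00216) were higher. Spock2, a secreted proteoglycan, fell to 10.37, 10.75 and 9.45 against 13.45, 13.58 and 13.69 (-3.39 ± 0.22, adjusted p = 7.37e-08), and fibronectin (Fn1) to 11.35, 10.94 and 11.45 against 13.06, 13.18 and 13.25 (-1.92 ± 0.17, adjusted p = 1.6e-06). Col1a1 was lower (-1.11 (adjusted p = 0.00842); adjusted p = 0.0619 without Fz4 KO 2 and 0.131 with the block), and Nid1 (+0.57) and Col1a2 (+0.51) were called higher only until 1 of 2 Fz4 KO arrays was left out (adjusted p up to 0.0838), and Col1a2 was not called with the block (adjusted p = 0.063).

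Of 12 matrix proteases and inhibitors, 8 were higher and none lower (66.7% called), with a median of +0.98. Without adjustment 10 had a p under 0.05 in limma. Mmp2, which cleaves type IV collagen, read 9.47, 8.82 and 9.47 in Fz4 KO against 4.37, 5.01 and 6.03 (+4.11 ± 0.37, adjusted p = 2.16e-06), and Mmp14, which activates it, 8.95, 9.31 and 9.06 against 6.33, 6.86 and 7.31 (+2.28 ± 0.25, adjusted p = 1.72e-05). The inhibitor Timp1 read 9.38, 9.52 and 9.71 against 4.14, 6.40 and 7.13 (+3.45 ± 0.48, adjusted p = 0.00015). All 3 rose on every Fz4 KO array, with a wide spread of Timp1 in wild type. Adamts9 (+1.77, adjusted p = 1.04e-05) and Adamts4 (+1.46, adjusted p = 0.000939) were higher, the small rises of Timp2 (+0.50) and Timp3 (+0.36) lost their calls without 1 of several arrays (adjusted p up to 0.125) and with the block (adjusted p = 0.0923 and 0.122), and Mmp9 (-0.09, adjusted p = 0.82) did not pass.

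Cell cycle genes were higher for 10 of 16 members and lower for none (62.5% called), with a median of +0.83. Without adjustment 14 had a p under 0.05 in limma. Birc5, a mitotic survivin, read 8.36, 9.24 and 8.79 against 5.14, 5.68 and 5.91 (+3.17 ± 0.22, adjusted p = 1.4e-07). The mitotic kinase Cdk1 read 8.54, 9.22 and 8.38 against 5.30, 6.01 and 6.44 (+2.78 ± 0.30, adjusted p = 1.47e-05). Mki67, the Ki-67 antigen of dividing cells, read 8.37, 9.15 and 8.60 against 6.18, 6.80 and 7.55 (+1.88 ± 0.29, adjusted p = 0.000363). No array overlapped in the 3 genes. The cyclins Ccnb2 (+2.71, adjusted p = 9.58e-06) and Ccna2 (+2.30, adjusted p = 0.000245), Bub1 (+1.82, adjusted p = 0.00822) and Mcm5 (+1.42, adjusted p = 0.00621) were higher. Aurka (+0.67), Aurkb (+0.98) and Pcna (+0.49) lost their calls without 1 of 7, 1 and 1 of 6 arrays (adjusted p up to 0.187), Aurka and Pcna also with the block (adjusted p = 0.113 and 0.119). Top2a did not pass on its brightest probe set (-0.95, adjusted p = 0.135), while another gave +2.14 (adjusted p = 0.000392).

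Genes by which vessels bind and attract leukocytes were higher for 6 of 18 members and lower for 2 (44.4% called). P-selectin (Selp), which starts the rolling of leukocytes, read 12.14, 11.56 and 12.49 in Fz4 KO against 5.49, 7.49 and 8.24 (+4.88 ± 0.51, adjusted p = 1.04e-05), and E-selectin (Sele) 10.09, 9.44 and 10.68 against 5.85, 6.41 and 7.44 (+3.55 ± 0.39, adjusted p = 1.76e-05). Ackr1, a chemokine-binding receptor of venules, read 9.60, 8.09 and 9.78 against 5.38, 6.05 and 6.55 (+3.20 ± 0.36, adjusted p = 2.06e-05). Fz4 KO 2 was the lowest mutant array in all 3 genes and was still above wild type. Lrg1, a secreted modulator of TGF-beta signalling in vessels, was at +4.08 (adjusted p = 1.77e-05) and Il6 at +1.43 (adjusted p = 0.00553); the call of Ccl7 (+2.21) ended without any of 5 arrays (adjusted p up to 0.160). Vcam1 (-1.03, adjusted p = 0.00101) and Cxcl12 (-1.25, adjusted p = 0.00012) were lower, and Icam1 (+0.10, adjusted p = 0.768), Ccl2 (+1.10 (adjusted p = 0.13), or 0.0338 with the block) and Nfkbia (-0.03, adjusted p = 0.867) did not pass.

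Of 10 genes of MHC and antigen presentation, 5 were higher and none lower in Fz4 KO, against 16.7% called among all genes. The higher ones included 3 of the 4 H2 class II genes listed and neither H2 class I gene. Cd74, the chaperone of class II molecules, read 12.02, 12.08 and 12.78 against 9.53, 10.80 and 11.14 (+1.68 ± 0.34, adjusted p = 0.00298), H2-Eb1 9.87, 9.75 and 10.70 against 6.51, 7.73 and 8.31 (+2.47 ± 0.37, adjusted p = 0.000289) and H2-Aa 10.13, 10.37 and 11.18 against 6.51, 8.53 and 9.14 (+2.33 ± 0.50, adjusted p = 0.00442). The ranges were apart, and Fz4 KO 3 was the highest array of each. H2-Ab1 (+2.16; adjusted p = 0.0502 without Fz4 KO 3) and the peptide pump Tap1 (+0.76; adjusted p up to 0.210 without 1 of 7 arrays and 0.134 with the block) were higher too. The class II gene H2-DMa read 7.93, 7.72 and 8.51 against 5.35, 7.33 and 7.995 with overlapping ranges and did not pass (+0.93 (adjusted p = 0.192), or 0.0385 with the block). H2-K1 (+0.11, adjusted p = 0.564), H2-D1 (+0.16, adjusted p = 0.36) and B2m (+0.04, adjusted p = 0.837) did not pass. Of 12 interferon-inducible genes only Ifitm1 was called (8.3%, below the share of all genes), and 2 had an unadjusted p under 0.05 in limma. The call of Ifitm1 (+0.84, adjusted p = 0.0312) ended without any of 7 arrays (adjusted p up to 0.106) and with the block (adjusted p = 0.0593).

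In a pair of lists no gene was called. Of 13 immediate early genes, such as Fos (-0.31, adjusted p = 0.056) and Egr1 (-0.21, adjusted p = 0.163), none passed the adjusted test in limma and 3 had an unadjusted p under 0.05; another probe set of Jun gave -0.51 (adjusted p = 0.0286). Of 15 genes of oxidative phosphorylation none passed and none had an unadjusted p under 0.05, with members between -0.09 and +0.21 and a median of 0.01.

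Markers of other cells that the beads could carry were read beside these results. Of 14 pan-endothelial genes, 3 were higher and 2 lower (35.7% called). Their mean signal was 11.92 to 11.95 on the Fz4 KO arrays and 11.71 to 11.93 on the wild-type arrays. Macrophage and microglia markers were higher for 11 of 20 genes (55.0%). Their mean was 9.56 to 10.12 in Fz4 KO and 7.93 to 9.34 in wild type, without overlap. Mrc1, the mannose receptor of perivascular macrophages, read 9.08, 10.08 and 9.55 against 3.74, 6.51 and 7.42 (+3.50 ± 0.63, adjusted p = 0.00129), and Cd163 7.34, 7.82 and 8.06 against 4.60, 5.61 and 6.94 (+2.04 ± 0.42, adjusted p = 0.00308), whereas the microglial genes P2ry12 (-0.54, adjusted p = 0.436) and Cx3cr1 (+0.17, adjusted p = 0.784) did not pass. Only 5 of the 11 macrophage calls held with each array left out in turn: those of Aif1, C1qa, C1qc, Cd14, Cd68 and H2-Ab1 ended without at least 1 array, Fz4 KO 3 among them each time (adjusted p up to 0.134). With the block, Fcer1g, Ptprc, Tyrobp, Itgam and C1qb of this list were also called higher (adjusted p = 0.012 to 0.044). H2-Aa and H2-Ab1 stand in this list and in the MHC list, and the part of macrophages in the class II, cell cycle and matrix results was not tested.

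Red blood cell genes were lower for 3 of 4 members, against 16.7% called among all genes. Their mean was 4.66 to 5.09 in Fz4 KO and 5.98 to 6.66 in wild type. Alas2, the red cell enzyme of haem synthesis, read 4.31, 3.63 and 3.24 against 6.01, 6.47 and 7.23 (-2.76 ± 0.29, adjusted p = 1.2e-05), and the globin gene Hbb-b2 9.26, 8.58 and 8.37 against 10.86, 11.21 and 11.41 (-2.43 ± 0.20, adjusted p = 7.54e-07), whose close copies may share its probes. Pericyte and smooth muscle markers were higher for 3 of 12 and lower for none, a share not far above the 16.7% called among all genes. Their mean was 10.71 to 10.87 in Fz4 KO against 10.25 to 10.58 in wild type. The calls of the red cell gene Slc4a1 and the pericyte gene Cspg4 ended without any of 4 and 6 arrays (adjusted p up to 0.113 and 0.139) and with the block (adjusted p = 0.144 and 0.0788), which left 1 pericyte marker called since the call of Abcc9 ended too (adjusted p = 0.0537). In bulk samples such as these, fewer cells of a type and less RNA per cell cannot be told apart.

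Of the retinal cell markers few were called, and the shares below stand beside the 16.7% called among all genes. Rod markers were called for 1 of 10 (10.0%; Gnat1, +1.21 (adjusted p = 0.00981), adjusted p = 0.0644 without Fz4 KO 1), with means of 5.86 to 6.79 in Fz4 KO and 5.52 to 6.24 in wild type that overlapped. Cone markers were called for 1 of 8 (12.5%; Gngt2, +1.96 (adjusted p = 4.76e-06)), and for 2 with the block (Gnb3, adjusted p = 0.0317), with means of 5.60 to 6.31 against 5.28 to 5.52. Of 15 genes of inner retinal neurons 2 were higher and 1 lower (20.0%), a share near that of all genes. The largest of these changes was that of Thy1, a surface protein of ganglion cells that other cells also make, at 9.49, 9.30 and 9.35 against 4.59, 5.27 and 5.65 (+4.16 ± 0.19, adjusted p = 2.32e-09). The other one higher was Sncg, a synuclein of ganglion cells, at 11.34, 11.02 and 11.05 against 9.37, 9.99 and 10.59 without overlap (+1.23 ± 0.26, adjusted p = 0.00396), and both calls held with each array left out. The ganglion cell markers Nefl (+0.79, adjusted p = 0.268), Rbpms (-0.01, adjusted p = 0.977) and Pou4f1 (-0.85, adjusted p = 0.429) did not pass. Of 13 genes of Müller glia and astrocytes 2 were higher and 1 lower (23.1%), Apoe most (+1.61, adjusted p = 9.61e-05), and the calls of Clu, Glul and the neuronal gene Lhx1 ended without any of 5, 4 and 6 arrays (adjusted p up to 0.122, 0.129 and 0.140), that of Glul also with the block (adjusted p = 0.088). Of 12 genes of pigment epithelium and melanocytes 1 was higher and 1 lower (16.7%), of 10 genes of lymphocytes, neutrophils and platelets 1 was higher (10.0%; Cd4, +1.55 (adjusted p = 0.00188)), and of 9 fibroblast genes 2 were higher and 2 lower (44.4%). The first of these shares equals that of all genes and the next lies below it. Some markers not called on their brightest probe set were higher on others. These were the cone gene Pde6h (+1.15, adjusted p = 0.0181), the glial gene Gfap (+1.04, adjusted p = 0.0279) and the fibroblast gene Fbln1 (+1.13 and +1.28, adjusted p = 0.0349 and 0.0277).

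Vessel types were mixed. Arterial markers were higher for 5 of 11 and lower for 3 (72.7% called). The connexin Gja5 read 6.86, 5.83 and 6.24 against 4.06, 4.19 and 4.62 (+2.04 ± 0.20, adjusted p = 5.92e-06). Lower were Gkn3, at 8.13, 8.49 and 8.07 against 10.82, 11.41 and 11.61 (-3.09 ± 0.38, adjusted p = 5.23e-05), and the kinase Bmx (-1.60, adjusted p = 0.00113). Of 9 venous markers 2 were higher (Selp and Ackr1) and 3 lower (Slc38a5, Vcam1 and Vwf), which is 55.6% called. Prox1, a master factor of lymphatic endothelium that the retina also makes in neurons and glia, read 9.66, 9.86 and 9.41 against 8.38, 8.50 and 8.74 (+1.11 ± 0.17, adjusted p = 0.000294). Of 5 lymphatic markers 3 were higher (60.0%), but the call of Flt4 ended without any of 4 arrays (adjusted p up to 0.120) and with the block (adjusted p = 0.0692). Lyve1, at 6.71, 7.06 and 8.12 against 4.97, 5.80 and 6.31, stands in this list and in the macrophage list.

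**Figure D4:**
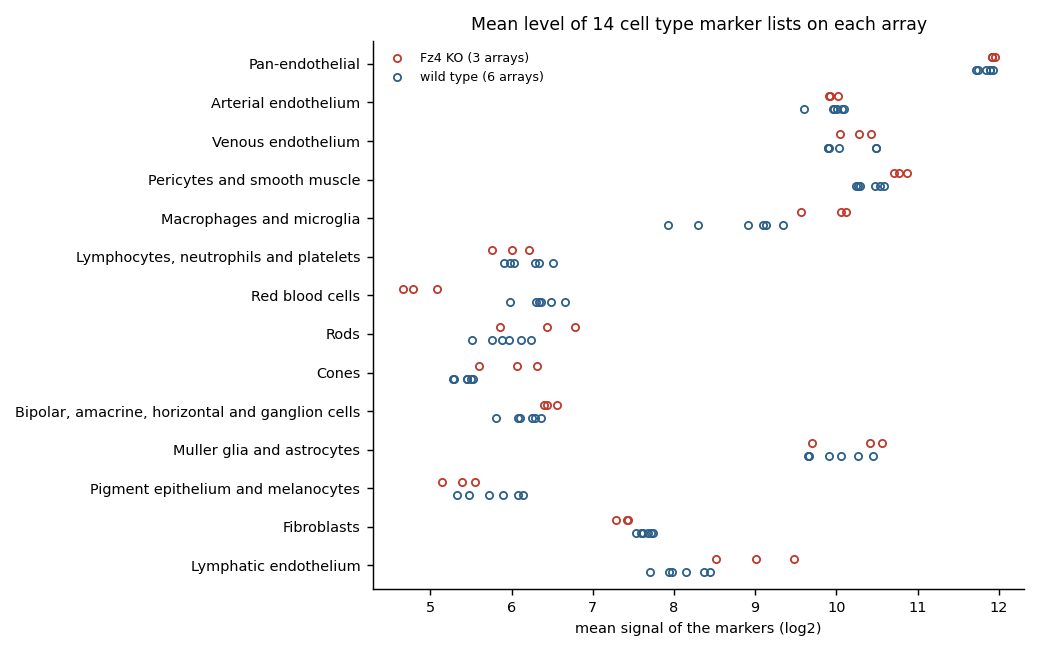
Each circle is the mean signal (log2) of 1 cell type marker list on 1 array, red for Fz4 KO (3 arrays) above blue for wild type (6 arrays). The circles of macrophages and microglia (9.56 to 10.12 in Fz4 KO, 7.93 to 9.34 in wild type) and of red blood cells stand apart between the groups, those of pericytes, cones, inner retinal neurons, fibroblasts (lower in Fz4 KO) and lymphatic endothelium do so by smaller gaps, and the pan-endothelial circles lie close together.

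Against the other mutants of the pathway fewer genes were called than against wild type. Between Fz4 KO and Lrp5 KO 41 genes were called (0.225% of all genes), 29 higher (0.159%) and 12 lower (0.066%) in Fz4 KO, and 1664 genes had an unadjusted p under 0.05. Between Fz4 KO and Norrin KO 423 genes were called (2.32%), 163 higher (0.896%) and 260 lower (1.43%), with 3284 at an unadjusted p under 0.05. Both counts moved with single arrays: the first was 11 without Fz4 KO 3, 20 without Fz4 KO 1, 24, 26 and 18 without Lrp5 KO 1, 2 and 3. The other was 61, 97 and 100 without Fz4 KO 1, 2 and 3, 102 and 195 without Norrin KO 1 and 3, and 764 without Norrin KO 2. Fitted on only the 6 arrays compared, 5 genes were called against Lrp5 KO, 4 of them among the 41, and 19 against Norrin KO, 16 of them among the 423, with 1761 and 3101 genes at an unadjusted p under 0.05 in limma. Most calls given below for these comparisons were thus made only with the spread estimated over all 4 groups. The X-linked RNA Xist was among the 19 but not among the 423, and the part of sex in that comparison was not tested. Of the 30 largest changes against wild type, 2 were called against Lrp5 KO (Adam12, +1.09 (adjusted p = 0.0353), and Ifi202b) and 3 against Norrin KO (Pglyrp1, -1.26 (adjusted p = 0.0375), Kcp, -1.65 (adjusted p = 0.0245), and Ifi202b). The call of Adam12 ended without any of the 6 arrays compared (adjusted p up to 0.178), that of Pglyrp1 without any of 4 and that of Kcp without any of 3 (adjusted p up to 0.139 and 0.102). Against wild type, 29 of the 30 were also called in Lrp5 KO and 29 in Norrin KO, with Ifi202b the exception both times. Those 2 fits share the wild-type arrays with the comparison of Fz4 KO. The comparisons with the mutants share the Fz4 KO arrays with each other and with the comparison to wild type.

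Ifi202b had the largest rise of the called genes without overlap in both comparisons. It read 9.70, 10.53 and 10.60 for Fz4 KO, 5.28, 4.83 and 5.13 for Lrp5 KO, 7.78, 5.36 and 4.81 for Norrin KO and 4.45, 4.87 and 6.35 (lowest, median, highest) for wild type. It was +5.20 ± 0.63 (adjusted p = 0.00233) against Lrp5 KO and +4.29 ± 0.63 (adjusted p = 0.0074) against Norrin KO, and no array of the other 3 groups reached the lowest Fz4 KO array. Its relative Ifi213 went the other way, at 6.18, 6.39 and 6.31 for Fz4 KO, 7.60, 8.24 and 8.26 for Lrp5 KO and 7.98, 8.20 and 8.92 for Norrin KO (-1.74 (adjusted p = 0.0347) and -2.07 (adjusted p = 0.0074)), with wild type at 6.08, 6.74 and 7.18, a range that holds all 3 Fz4 KO arrays (-0.35, adjusted p = 0.42). The call of Ifi213 against Lrp5 KO ended without any of 5 arrays (adjusted p up to 0.176).

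In all, 13 genes (0.0715% of all genes) were called against both other mutants in the same direction: Ctse, Cxcl13, Dpys, Dyrk3, Gdnf, Ifi202b, Map3k7cl, Rbm44, Serpina1b and Stk35 were higher in Fz4 KO, and Fzd4, Hbb-b2 and Ifi213 lower. The count was 6, 11 and 3 without Fz4 KO 1, 2 and 3, was 6, 4 and 4 without Lrp5 KO 1, 2 and 3, and was 11, 12 and 10 without Norrin KO 1, 2 and 3. Fzd4, Ifi202b and Map3k7cl were among them each time, and each of the other 10 dropped out at least once. Fitted on only the arrays compared, Fzd4, Ifi202b and Map3k7cl were called against Lrp5 KO (the last 2 at adjusted p = 0.00309 and 0.0383), and of the 13 genes Fzd4 and Stk35 were called against Norrin KO (Stk35 at adjusted p = 0.0195, Ifi202b and Map3k7cl at 0.0967 each).

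Map3k7cl read 7.79, 7.44 and 6.87 for Fz4 KO, 3.85, 3.72 and 4.39 for Lrp5 KO and 5.38, 4.60 and 5.85 for Norrin KO (+3.38 (adjusted p = 0.000342) and +2.09 (adjusted p = 0.00886)). The kinase Stk35 had tight Fz4 KO arrays, at 8.37, 8.23 and 8.39 against 7.09, 6.23 and 6.64 and 6.36, 6.10 and 6.49 in the same order. Ctse, an aspartic protease, read 6.87, 8.18 and 8.18, 3.81, 4.27 and 3.96 and 6.62, 5.003 and 3.34. These 3 genes were higher in Fz4 KO than on any array of either other mutant, although the calls of Ctse ended without any of 5 arrays in both comparisons (adjusted p up to 0.149) and that of Stk35 against Lrp5 KO without any of 4 (adjusted p up to 0.0959). Of the 13 genes 5 lie on chromosome 1 (38.5%, namely Ctse, Dyrk3, Ifi202b, Ifi213 and Rbm44), which holds 5.81% of all genes, a count made after the values were seen; of these 5 only Ifi202b stayed called with each array left out.

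**Figure D5:**
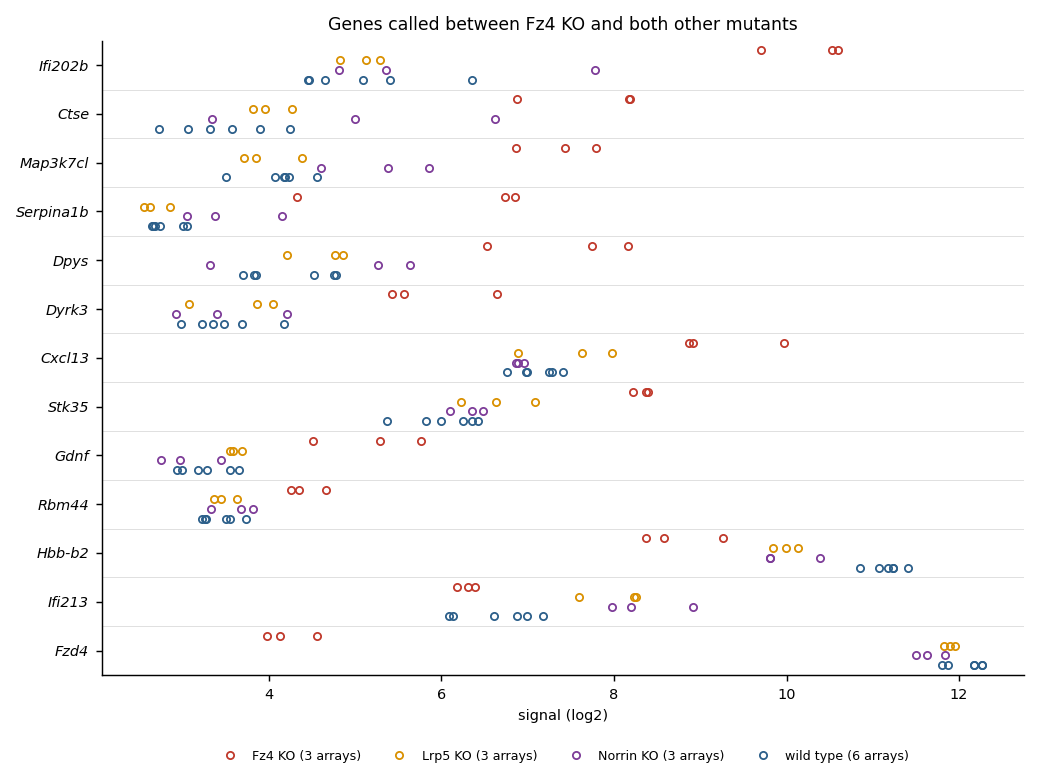
Circles are the signals (log2) of single arrays for the 13 genes called between Fz4 KO and both other mutants in the same direction, in rows by gene, with Fz4 KO (red), Lrp5 KO (orange), Norrin KO (purple) and wild type (blue, 6 arrays) from top to bottom within a row. In the first 10 rows the red circles lie to the right of both other mutants, and in the last 3 rows to their left.

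Among carriers, pumps and junction genes a few differed from Lrp5 KO, in both directions. Lsr read 7.52, 7.62 and 7.30 for Fz4 KO, 9.004, 9.32 and 8.74 for Lrp5 KO and 11.36, 11.46 and 11.66 for wild type, a difference from Lrp5 KO of -1.54 ± 0.16 (adjusted p = 0.000449). Slco1a4 (-1.23, adjusted p = 0.0101), Abcb1a (-0.64, adjusted p = 0.0355), Paqr5 (-1.38, adjusted p = 0.0496) and Pcp4l1 (-1.28, adjusted p = 0.0147) also lay lower than in Lrp5 KO, whereas the glutamate carrier Slc1a1 (+1.501, adjusted p = 0.0329) and the arterial connexin gene Gja5 (+1.85, adjusted p = 0.00284) lay higher. The calls of Lsr and Gja5 held with each array left out and ended with only the arrays compared (adjusted p = 0.0884 and 0.146). That of Slc1a1 ended without any of 4 arrays (adjusted p up to 0.150), that of Slco1a4 ended without Fz4 KO 3 (adjusted p = 0.0769), those of Abcb1a and Pcp4l1 without any of 5 arrays and that of Paqr5 without any of 6 (adjusted p up to 0.184, 0.0986 and 0.248). Galc, a lysosomal galactosidase, was higher than in Lrp5 KO (+3.32, adjusted p = 0.00284), where it read 5.10, 3.43 and 5.58, while Fz4 KO (8.24, 7.58 and 8.26) overlapped wild type (7.87, 8.37 and 8.76). Glycam1, a ligand of L-selectin, read 9.23, 7.41 and 9.59 in Fz4 KO and 5.01, 5.28 and 5.14 in Lrp5 KO, with Norrin KO at 8.34, 9.80 and 9.93, and its call ended without any of 5 arrays (adjusted p up to 0.115).

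In several of the largest differences from Norrin KO it was Norrin KO that lay away from wild type. Ifi44l read 2.32, 2.18 and 2.27 in Fz4 KO and 6.03, 8.22 and 8.87 in Norrin KO (-5.45 ± 0.52, adjusted p = 0.000289), with wild type at 2.34, 2.53 and 3.48. Gdpd3 read 7.72, 7.59 and 7.82 against 11.15, 12.55 and 11.56 (-4.05 ± 0.65, adjusted p = 0.00956), with wild type at 7.08, 7.65 and 9.72. In both genes Fz4 KO lay near wild type and Norrin KO above it. Ccbe1 (-2.60, adjusted p = 0.0154), Slc26a7 (-2.53, adjusted p = 0.032) and the pigment gene Tyrp1 (-2.49, adjusted p = 0.0074) followed the same order, but the calls of Ccbe1 and Slc26a7 ended without any of 4 and 5 arrays (adjusted p up to 0.0708 and 0.119). Lif, a cytokine of the interleukin 6 family, and Tmem87a were instead high in Fz4 KO, Lif at 8.96, 7.71 and 9.78 against 5.64, 6.49 and 4.92 in Norrin KO (+3.14 ± 0.53, adjusted p = 0.0106) and Tmem87a at 10.66, 10.99 and 10.69 against 7.95, 7.79 and 7.98 (+2.87 ± 0.45, adjusted p = 0.00886), and Dpys, an enzyme of pyrimidine breakdown, was higher as well (+2.74, adjusted p = 0.0227). The call of Lif ended without Fz4 KO 1 (adjusted p = 0.0571) and that of Dpys without any of 3 arrays (adjusted p up to 0.0869). In Lrp5 KO, Lif read 7.662, 7.385 and 7.465 and Tmem87a 10.218, 8.055 and 10.141. Both were called higher there than in wild type (adjusted p = 0.0442 and 0.00187), and neither passed between Fz4 KO and Lrp5 KO (adjusted p = 0.504 and 0.444). Other, dim probe sets of Dpys differed between Fz4 KO and wild type by only +0.03 and +0.15.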

How the data were processed

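RNA of bead-purified retinal endothelial cells was read on 15 expression arrays, 9 of which enter the comparison of Fz4 KO with wild type. The deposited values are log2 signals per probe set, normalized by the authors with RMA per the submitters' processing notes; its settings, and whether all arrays were normalized together, were not given in the sources used here. Since the deposited log2 values carry no detection calls, dim probe sets were kept. Array medians ran between 5.885 and 6.038, and 0 value columns could not be tied to a sample.

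For each gene with a probe set of exactly 1 symbol the brightest probe set, by its mean over 15 arrays, was taken. A limma model (version 3.58.1, R 4.3.3) with 4 group means was fitted on all 15 arrays to 18194 genes, with moderated errors and Benjamini-Hochberg adjustment, and genes at an adjusted p under 0.05 were called. On data simulated for this comparison with 18194 genes, 66 of 100 genes changed 2-fold and 95 of 100 changed 4-fold were called, with 17 false calls. The simulated noise was normal and independent, and only those genes were changed, while 3047 were called in the real data. These rates therefore need not hold for the real data.

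Named were Fzd4, the 15 largest rises and 15 largest falls against wild type without overlapping arrays, the 5 largest each way against either other mutant, and members of 28 pathway and 14 cell type lists. The members and lists were chosen with earlier results of these data known. Alternatives covered scaling, probe set choice, a filter on dim genes, the spread estimate, the set of arrays, a 2-fold minimum, a replicate block and each array left out. Over Fz4 KO 1 to 3 and wild type 1 to 3, same-numbered arrays deviated together from the group means (r = 0.276, 0.299 and 0.337). Differently numbered ones did so at 0.016 at most, but centring on 3 arrays itself pushes these values down. No label says that the numbers pair pools, so the pairs used for the block were read from these same data. From the mean of all 6 wild-type arrays the values were 0.258, 0.06 and 0.381, and Fz4 KO 2 was closer to wild type 4 (0.251). Array 3 of both groups was low in the Y gene Eif2s3y (3.25 and 2.69). Chromosomes and promoters came from RefSeq (GRCm38.p6).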

Additional observations from a re-analysis of the deposited data

Results flagged for a closer look

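In 5 of 48 genes looked at, 1 wild-type array lay far from the other 5, a gap that chance gives in about 1 in 20 groups. Gpihbp1 read 5.521 on wild type 2, against a median of 4.618. Apln read 5.481 on the same array (median 3.891), as did Ifi44l at 3.482 (2.533) and Gdpd3 at 9.718 (7.65), so 4 of the 5 came from wild type 2. Pglyrp1 read 12.515 on wild type 5 (median 12.824).

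The difference from another mutant was itself tested for the genes that follow. Against Lrp5 KO, Fz4 KO was higher by 5.195 in Ifi202b, 3.728 in Ctse, 3.6 in Glycam1, 3.384 in Map3k7cl and 3.324 in Galc. It differed from Lrp5 KO by -1.738 in Ifi213, -1.54 in Lsr, -1.382 in Paqr5, -1.281 in Pcp4l1 and -1.255 in Hbb-b2. Against Norrin KO, Fz4 KO was higher by 4.292 in Ifi202b, 3.136 in Lif, 2.872 in Tmem87a, 2.755 in Ctse and 2.738 in Dpys. It differed from Norrin KO by -5.448 in Ifi44l, -4.046 in Gdpd3, -2.595 in Ccbe1, -2.527 in Slc26a7 and -2.487 in Tyrp1. With 1 array left out, the calls of Ctse, Glycam1, Ifi213, Paqr5, Pcp4l1 and Hbb-b2 against Lrp5 KO and of Ctse, Lif, Dpys, Ccbe1 and Slc26a7 against Norrin KO ended at least once.

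Probe sets outside the gene table also differed between Fz4 KO and wild type. Of 9160 probe sets with no symbol, 198 were higher and 205 lower (4.4% in all), and of 932 with several symbols 50 were higher and 39 lower (9.55%), while none of 51 control probe sets was called. The largest differences of probe sets with no symbol were -7.337 for 1438737_at, -6.145 for 1423858_a_at, 4.812 for 1442075_at and 4.983 for 1425886_at.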

How the results depend on the processing

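Against wild type, 1940 genes were called higher and 1107 lower in Fz4 KO. With a 2-fold minimum these were 1046 and 503, and with wild type 1 to 3 alone 1237 were higher. Array weights gave 2142 lower. Leaving out 1 array in turn gave 1155 (without Fz4 KO 3) to 2088 (without wild type 3) higher and 755 (without Fz4 KO 3) to 1187 (without wild type 4) lower. The comparisons with the other mutants depended far more on the settings. The 41 genes called against Lrp5 KO became 27 among genes above the median gene, 225 with array weights, 5 with only the arrays compared, 1 with the replicate block and 11 (without Fz4 KO 3) to 38 (without Fz4 KO 2) with an array left out. The 423 against Norrin KO became 659 after a new quantile normalization, 700 above the median gene, 275 with the mean of all probe sets, 642 with a trended robust prior, 993 with array weights, 19 with only the arrays compared, 199 with a 2-fold minimum, 2 with the replicate block and 61 (without Fz4 KO 1) to 764 (without Norrin KO 2). The cause of these shifts was not tested. Fbln1, not called at -0.27, was at 0.712 with the mean of all probe sets (adjusted p = 0.0135), and Slc2a3 was at -0.292 without probe sets ending in _x_at or _s_at. With the replicate number as a block, on wild type 1 to 3, 1783 genes were higher and 1449 lower and Fzd4 was at -7.88. The block ended 30 calls of named or listed genes and brought 16, given beside those named. It left 1 of 41 calls against Lrp5 KO and 1 of 423 against Norrin KO, that of Fzd4 both times. The other gene called against Norrin KO with the block was Xist, which was not among the 423. Against these mutants same-numbered arrays did not deviate together (r = 0.157, -0.238 and 0.097 for Lrp5 KO, -0.02, 0.008 and -0.133 for Norrin KO). Of 239 called genes named or listed, 178 (2-fold minimum) to 239 (array weights) stayed called under the alternatives. Pools of few arrays without detection calls limit what can be said of dim genes.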

Other observations

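Sphingolipid and lysolipid genes moved in both directions in Fz4 KO, with 6 of 12 higher, 3 lower and a median of +0.53. Among all genes 16.7% were called. Plpp3, a surface phosphatase that removes lysophosphatidic acid and sphingosine phosphate, read 12.78, 12.85 and 12.90 in Fz4 KO against 10.32, 10.53 and 11.29 in wild type (+2.20 ± 0.18, adjusted p = 6.16e-07), and the related Plpp1 was at +1.37 (adjusted p = 7.78e-07). The receptor S1pr3 (+1.10, adjusted p = 0.000588) and the sphingosine phosphate exporter Spns2 (+1.01, adjusted p = 0.0103) were higher, and the sphingomyelin synthase Sgms1 was lower (-1.34, adjusted p = 3.08e-06). Of 10 genes of the IGF axis, 7 were higher and 1 lower, again against 16.7% of all genes, with a median of +0.81. The growth factor Igf1 read 8.92, 9.41 and 8.85 against 5.48, 6.21 and 6.92 (+2.90 ± 0.32, adjusted p = 1.57e-05), and its receptor Igf1r was lower, at 10.48, 10.74 and 10.41 against 11.89, 12.07 and 12.12 (-1.49 ± 0.21, adjusted p = 0.000154). The calls of Insr (+0.62) and Igfbp7 (+0.35) ended without Fz4 KO 3 and without any Fz4 KO array (adjusted p up to 0.0541 and 0.068) and with the replicate block (adjusted p = 0.0554 and 0.0898).

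Of 12 genes of drug metabolism, 3 were higher and 3 lower, against 16.7% called among all genes. Ahr, the aryl hydrocarbon receptor, read 10.20, 9.99 and 10.39 in Fz4 KO against 6.15, 7.13 and 7.35 in wild type (+3.19 ± 0.22, adjusted p = 1.65e-07), and its target Cyp1a1 read 5.27, 4.82 and 8.42 against 3.62, 4.08 and 4.27 (+2.16 ± 0.58, adjusted p = 0.0177), with Fz4 KO 3 far above the other two. With the replicate block 1 of the 3 was called higher, since Cyp1a1 and Cyp4b1 did not pass (adjusted p = 0.132 and 0.0746). The glutathione transferase Gsta4 fell to 9.58, 8.51 and 9.20 against 11.91, 12.25 and 12.53 (-3.18 ± 0.23, adjusted p = 2.42e-07), and the call of Sult1a1 (-1.10) ended without any of 4 arrays (adjusted p up to 0.110). Of 16 guidance genes, 6 were higher and 3 lower (56.2% called). Slit3 was higher (+2.19, adjusted p = 3.21e-05). Slit2 was lower, at 6.93, 7.11 and 5.75 against 7.68, 8.12 and 8.99 (-1.61 ± 0.45, adjusted p = 0.0231), a call that ended without Fz4 KO 3 (adjusted p = 0.167). Of 15 hypoxia and glycolysis genes (46.7% called), 3 were higher, with Egln3 at +1.52 (adjusted p = 0.000487), and 4 lower, with Ankrd37 at -1.49 (adjusted p = 2.06e-05). The calls of Pgk1 and Bnip3 ended without Fz4 KO 3 and without Fz4 KO 1 or 2 (adjusted p up to 0.0792 and 0.0868).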
